A study of Mus musculus with 8 samples.

Results

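The 40 genes described here are interferon-stimulated genes and the interferon receptor chains, taken as a list of gene symbols that was written for the pathway. The list was chosen with earlier results of these data known. A listed gene was kept where at least 4 of the 8 libraries held 10 or more reads of it. All 40 listed genes were kept, and all 40 were among the 12239 genes tested of the 23183 genes in the files. The samples were 8 bulk mRNA-seq libraries of lung type 2 innate lymphoid cells (ILC2s), the tissue lymphocytes that answer alarmins such as IL-33 with type 2 cytokines. The cells came from wild-type C57BL/6 mice of both sexes, aged 6 to 10 weeks, that had received recombinant mouse IL-33. They were enriched with a pan-ILC kit and CD45 beads and cultured with IL-2, IL-7 and IL-33, so every library of both groups carried the IL-33 treatment. For 3 h, 4 samples received 5 µM Yoda1, a chemical agonist of the mechanosensitive cation channel Piezo1, and 4 received 0.1% DMSO as the vehicle.

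Interferons are secreted cytokines of antiviral and antibacterial defence. Type I interferons bind the receptor chains Ifnar1 and Ifnar2 and act mainly through a complex that holds Stat2 and Irf9 and binds the interferon-stimulated response element (ISRE), while interferon-gamma binds Ifngr1 and Ifngr2 and acts mainly at gamma-activated sites (GAS). Both arms raise the transcription of genes for nucleic acid sensors, antiviral effectors and large GTPases, and interferon-gamma is also known to restrain ILC2s. The question was whether these targets followed the change of Ifng mRNA, the transcript of interferon-gamma, in Yoda1-treated ILC2s.

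Promoter sequences are shown for 4 members that passed the test, because they let the reader see the ISRE in genes that moved up and in a gene that moved down. Each is the 250 bases before the annotated start, 5′ to 3′ on the strand of the gene, from RefSeq (GRCm38.p6), with matches to the ISRE core (GAAANNGAAA, either strand) or the GAS core (TTCNNNGAA, which reads alike on both strands) in capitals. Oas3 lies at chr5:120777660-120777909 on the minus strand, Irgm1 at chr11:48871421-48871670 on the minus strand, Igtp at chr11:58199306-58199555 on the plus strand and Gbp2 at chr3:142620413-142620662 on the plus strand.
Oas3: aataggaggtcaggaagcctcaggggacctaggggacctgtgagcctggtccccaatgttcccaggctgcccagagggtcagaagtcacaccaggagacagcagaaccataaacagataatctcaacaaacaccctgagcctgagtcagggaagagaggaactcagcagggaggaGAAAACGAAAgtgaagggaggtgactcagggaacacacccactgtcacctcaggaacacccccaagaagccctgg
Irgm1: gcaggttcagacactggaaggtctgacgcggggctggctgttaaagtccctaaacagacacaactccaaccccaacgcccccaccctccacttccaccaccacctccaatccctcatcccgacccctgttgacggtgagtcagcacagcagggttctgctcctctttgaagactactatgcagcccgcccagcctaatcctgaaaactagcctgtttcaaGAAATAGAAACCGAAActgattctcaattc
Igtp: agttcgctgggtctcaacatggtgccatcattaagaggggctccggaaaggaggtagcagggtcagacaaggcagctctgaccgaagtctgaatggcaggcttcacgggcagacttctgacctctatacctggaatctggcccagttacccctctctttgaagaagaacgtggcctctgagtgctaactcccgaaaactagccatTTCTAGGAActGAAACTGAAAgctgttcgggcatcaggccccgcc
Gbp2: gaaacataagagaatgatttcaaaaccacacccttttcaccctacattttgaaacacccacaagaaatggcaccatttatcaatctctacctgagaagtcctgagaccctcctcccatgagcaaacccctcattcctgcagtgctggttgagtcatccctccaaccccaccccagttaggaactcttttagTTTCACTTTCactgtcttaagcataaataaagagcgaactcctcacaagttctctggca
The first base of the ISRE core lay 75 bases before the start in Oas3, 34 in Igtp and 59 in Gbp2. Irgm1 held a pair of overlapping matches, at 30 and 24 bases before its start. GENCODE, used for the gene positions below, starts Irgm1 at 48871683 and Gbp2 at 142620602, further upstream than RefSeq. The Irgm1 window and the Gbp2 match therefore lie inside the gene as GENCODE places it. Igtp also held a GAS core that began 45 bases before its start.

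Of the 40 members, 31 had an entry among the 27025 genes of the promoter table. An ISRE core was found in 12 of these 31 (38.7%), against 3.46% of all genes in the table and 3.21% of the tested genes in it. A GAS core was found in 7 of the 31 (22.6%), against 8.13% of all genes and 7.29% of the tested genes. All 5 GTPase genes in the table held an ISRE core, as did 5 of 11 antiviral effectors and 0 of 4 receptor chains. The 12 members with an ISRE core had log2 fold changes from -0.32 to 0.18 around a median of -0.02, with 3 higher and 1 lower. The 19 members without one had a median of -0.06, with 1 higher and 2 lower. The 7 members with a GAS core had a median of -0.02, with 1 higher and 1 lower. The 24 members without a GAS core had a median of -0.04, with 3 higher and 2 lower. Of all tested genes 6.04% were higher and 4.84% lower. The 3 higher members with an ISRE core were the GTPases Irgm1, Igtp and Gbp2. The difference between members with and without either core was not tested. A match is a run of letters and not a measured binding site.

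Total counts per library ran from 12438009 to 19534653, TMM scaling factors from 0.988 to 1.01, and replicates of a group differed by more than counting noise in every pair (chi-square per gene from 2.03 to 6.94). The labels leave unsaid if replicates were separate mice or separate cultures, so p-values measure the spread between these samples, which may be technical. CPM of a single gene is reads scaled to a common library total after TMM factors, while CPM summed over a list leaves the factors out. Among the markers fixed for each cell type, the summed CPM of 12 ILC2 genes was 17099 to 17609 with DMSO and 19124 to 19524 with Yoda1. Of the 12, 6 were higher and 1 lower, against 6.04% and 4.84% of all tested genes. Much of the rise of the sum lay in the cytokine genes Il13 (means of 5431 and 6667 CPM) and Il5 (3337 and 3672 CPM). Il1rl1 (log2 fold change 0.13) and Areg (0.20) were also higher. Gata3 (0.0002), Rora (0.03), Klrg1 (0.03) and Il7r (0.11) did not pass. The NK or CD8 T cell list of 9 genes summed to 797 to 883 CPM with DMSO and 835 to 902 with Yoda1. Of the 9, 6 had log2 fold changes above 0 and 3 below, and Eomes (0.21) and Prf1 (0.14) passed the test while Ncr1 (-0.23, 39 to 93 counts), Klrb1c (-0.21) and Cd8b1 (-0.13) did not. The T cell receptor list of 6 genes, 5 of them tested, summed to 64.1 to 71.6 CPM with DMSO and 67.5 to 76.9 with Yoda1. Of these 5, 4 had log2 fold changes above 0 and 1 below, and none passed the test. B cell genes (5.36 to 7.13 against 5.47 to 7.12 CPM) and macrophage or monocyte genes (6.63 to 8.63 against 6.67 to 8.09) were low, and the macrophage gene Marco was at 0 in every library. Lymphocytes that make interferon-gamma include NK and CD8 T cells. The part of such cells in the values below was not tested, and in bulk RNA fewer cells of a type and less RNA per cell cannot be told apart.

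Yoda1 raised Ifng mRNA in every library. Ifng (chr10:118441046-118445892, plus strand, GRCm38, with exons that overlap the gene model Gm49751) stood at 95.5, 102, 105 and 120.0 CPM in the DMSO libraries and at 260.1, 257, 283 and 272 CPM in the Yoda1 libraries. The groups were far apart, with the lowest Yoda1 library above the highest DMSO library. The means were 106 ± 10.4 and 268 ± 12.1 CPM (SD, n = 4 each), a 2.54-fold rise with a log2 fold change of 1.35 (SE 0.0548, 95% interval 1.23 to 1.46, adjusted p = 1.08e-11 from the quasi-likelihood test of edgeR, Benjamini-Hochberg adjusted over all tested genes). Ifng was the only interferon ligand of 21 listed with enough counts to test. For 13 of the 21, every library had 0 counts, and no other ligand exceeded 7 counts in a library. Ifnb1 had 0 to 3 counts.

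Members were called in both directions, and the log2 fold change of every member was below that of Ifng. By the same test 5 members were higher with Yoda1 (6.04% of all tested genes were higher), 4 were lower (4.84% of all tested genes) and 31 did not pass. The 5 became 3 without DMSO replicate 2 or without Yoda1 replicate 1, and 2 with upper-quartile scaling. The 4 became 7 without DMSO replicate 1, and 2 without DMSO replicate 3, DMSO replicate 4 or Yoda1 replicate 4. The 9 changed members compare with 10.9% of all genes that changed in either direction. The members' log2 fold changes ran from -0.32 to 0.18 with a median of -0.04, beside -0.01 for all tested genes, and 25 of the 40 were below 0. Without overlap between the groups, 5 members were higher and 4 lower, while 8.44% of all tested genes were higher and 7.05% lower in this way. Ifng stood at the 99.8 percentile of log2 fold change over all tested genes, so lying below it is not particular to the members. In all 40 members the 95% interval of the log2 fold change lay wholly below that of Ifng. The highest upper bound was 0.42, for the weakly detected Mx2, against a lower bound of 1.23 for Ifng, and 32 members had an upper bound under 0.2. The intervals included 0 in 26 members, lay above it in 7 and below it in 7. These intervals are not adjusted for the number of genes. Before adjustment, 14 of the 40 members passed the p-value threshold of the edgeR test, beside 3093 of all 12239 tested genes. The difference between these shares was not tested. The members' share of all reads was 0.663, 0.687, 0.706 and 0.712% with DMSO and 0.718, 0.715, 0.708 and 0.713% with Yoda1, so the Yoda1 libraries lay within the upper end of the DMSO range or just above it. The 6 GTPases made up most of this share, with a summed CPM of 3803 to 4119 with DMSO and 4214 to 4298 with Yoda1. The 30 members that are neither receptors nor GTPases summed to 2409 to 2559 CPM with DMSO and 2404 to 2475 with Yoda1.

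**Figure D1:**
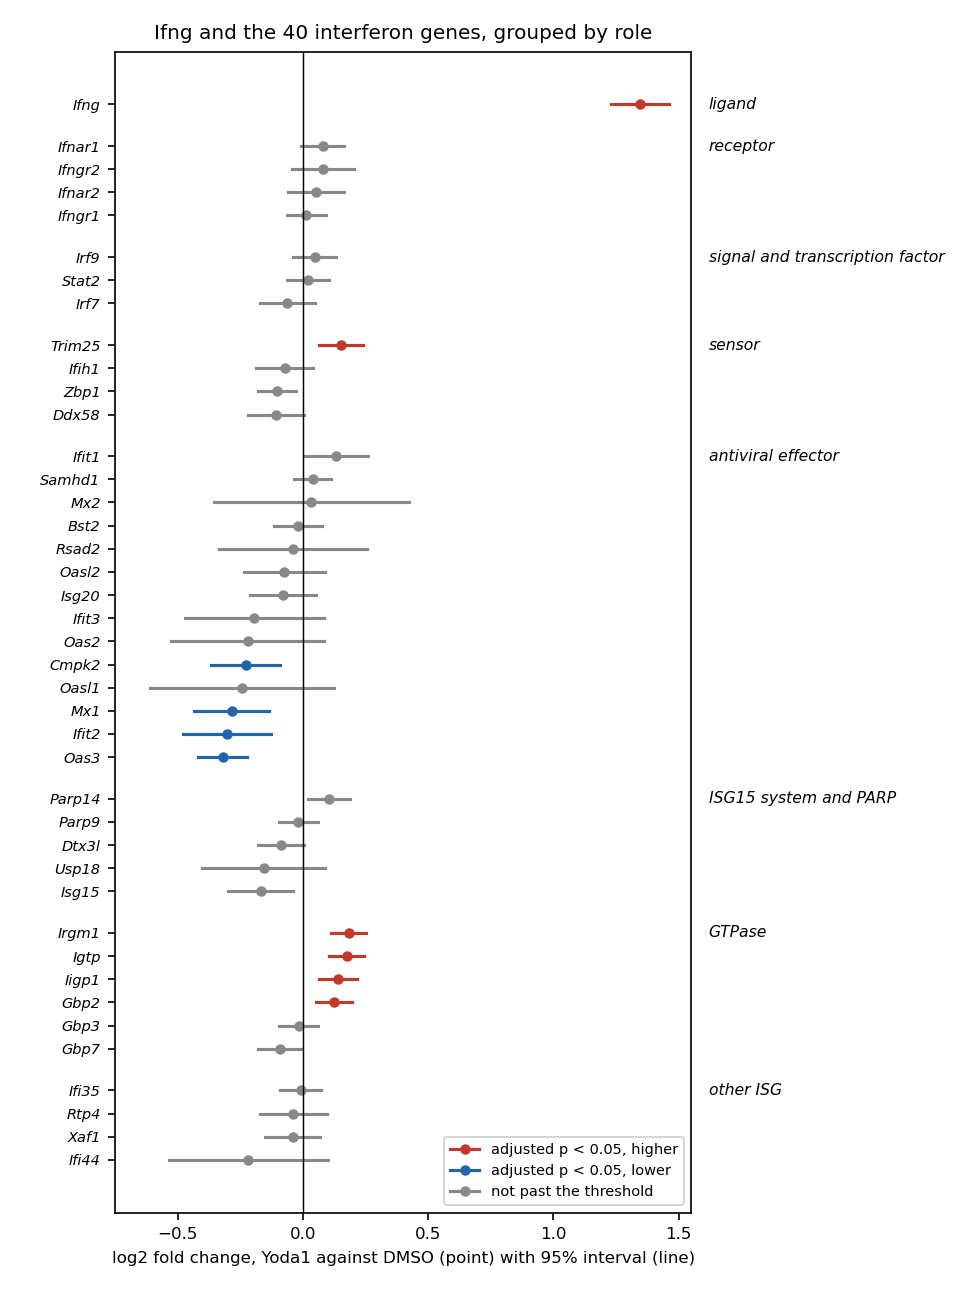
Log2 fold change of Yoda1 against DMSO (horizontal axis) for Ifng and the 40 interferon genes, grouped by role; points are estimates, lines 95% intervals, and colours show the edgeR call. Ifng stands at 1.35, while the 40 members lie between -0.32 and 0.18, with 4 GTPases and Trim25 in red to the right of 0 and 4 antiviral effectors in blue to the left.

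The 4 receptor chains were expressed and none of them passed the test. Ifngr1, the ligand-binding chain for interferon-gamma, gave 222, 239.8, 244 and 229 CPM with DMSO and 229, 246, 242 and 228 CPM with Yoda1. Ifngr2, its signalling partner, gave 37.5, 34.3, 43.0 and 38.5 CPM against 42.2, 38.0, 40.5 and 41.0 CPM. In both genes the libraries of the groups were interleaved. The log2 fold change was 0.01 for Ifngr1 (95% interval -0.07 to 0.09, adjusted p = 0.871) and 0.08 for Ifngr2 (-0.05 to 0.20, adjusted p = 0.457).

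For the type I receptor, Ifnar1 gave 118, 127, 132 and 131 CPM with DMSO and 136, 139, 136 and 127 CPM with Yoda1. Ifnar2 gave 36.1, 38.7, 38.6 and 36.5 CPM against 37.0, 40.7, 40.1 and 37.7 CPM. The groups overlapped in both, although 3 of the 4 Yoda1 libraries exceeded all DMSO libraries for Ifnar1. The log2 fold changes were 0.08 for Ifnar1 (95% interval -0.01 to 0.16, adjusted p = 0.238) and 0.05 for Ifnar2 (-0.06 to 0.16, adjusted p = 0.608). Per kilobase of exon, the DMSO level of Ifngr1 was 82.1 CPM, that of Ifnar1 21.4, that of Ifnar2 11.3 and that of Ifngr2 10.2, so each receptor had 1 chain at the higher and 1 at the lower level. Ifnar2 shares 8.87% of its 50-base words with the overlapping gene model Gm21970, and its counts are uncertain to that degree.

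The 3 signal and transcription factor members did not pass the test either. Stat2, which joins Irf9 in the type I interferon complex, had means of 91.6 ± 3.31 CPM with DMSO and 92.7 ± 1.24 CPM with Yoda1 (log2 fold change 0.02, 95% interval -0.06 to 0.10). Irf9, the DNA-binding part of that complex, had 77.9 ± 2.93 and 80.3 ± 1.90 CPM (0.05, -0.04 to 0.13). Irf7, which drives the later wave of type I interferon genes, had 45.5 ± 2.14 and 43.7 ± 2.52 CPM (-0.06, -0.17 to 0.05). The groups overlapped in all 3. Exons of Irf9 overlap those of Rnf31 on the same strand and exons of Irf7 overlap those of Phrf1 on the opposite strand, so reads between them may be shared.

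Of the 6 GTPases 4 were higher with Yoda1 and none was lower, where 6.04% of all tested genes were higher and 4.84% lower. Irgm1, an immunity-related GTPase that regulates the others of its family and autophagy, gave 463, 461, 471 and 487 CPM with DMSO and 535, 529, 543 and 529 CPM with Yoda1. Igtp, a related regulatory GTPase, gave 744, 779, 759.6 and 745 CPM against 860.2, 828, 864 and 866 CPM. All Yoda1 libraries lay above all DMSO libraries in both genes, and the gap was wider than the spread within either group. Irgm1 rose 1.13-fold (log2 fold change 0.18, SE 0.0339, adjusted p = 0.000444) and Igtp 1.13-fold (0.17, SE 0.0339, adjusted p = 0.000705). Both lie on chromosome 11, Irgm1 at 48861968 to 48871683 and Igtp at 58199556 to 58207591 (GRCm38). Igtp shares exons with the neighbouring Irgm2 and 12.3% of its 50-base words, so part of its counts may belong to Irgm2.

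Iigp1 and Gbp2 also rose. Iigp1, an effector GTPase that attacks vacuoles holding pathogens, gave 878, 904, 947 and 1008 CPM with DMSO and 1037, 1026, 1027 and 1025 CPM with Yoda1. Gbp2, a guanylate-binding protein with the same targets, gave 1151, 1235, 1241 and 1244 CPM against 1337, 1314, 1314 and 1341 CPM. The groups did not overlap in either gene, but the DMSO libraries were spread out, with DMSO replicate 4 of Iigp1 close to the Yoda1 values and DMSO replicate 1 of Gbp2 below its group. The log2 fold changes were 0.14 for Iigp1 (SE 0.0378, adjusted p = 0.0144) and 0.12 for Gbp2 (SE 0.0345, adjusted p = 0.0182), or 1.10-fold and 1.09-fold. The adjusted p of Iigp1 became 0.0713 without DMSO replicate 2 and 0.0548 without Yoda1 replicate 1 (range over all alternatives 0.0021 to 0.0713). That of Gbp2 became 0.0663 without Yoda1 replicate 1 and 0.0741 without Yoda1 replicate 4 (range 0.00652 to 0.0809). Gbp2 also lost its call when libraries were scaled by library size alone (0.0529) or by upper quartiles (0.0809), and Iigp1 under upper quartiles (0.0553).

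The other 2 guanylate-binding members lie beside Gbp2 on chromosome 3 and did not pass. Gbp3 had 137 ± 4.03 and 135 ± 2.60 CPM (log2 fold change -0.02, 95% interval -0.09 to 0.06), and Gbp7 had 438 ± 29.2 and 411 ± 18.8 CPM (-0.09, adjusted p = 0.183). Gbp7 was lower with an adjusted p of 0.0157 once DMSO replicate 1, its lowest DMSO library, was left out (range over all alternatives 0.0157 to 0.43). It shares 10.6% of its 50-base words with the overlapping gene model Gm43802, so its counts are uncertain to that degree. The difference between Gbp2 and its neighbours was not tested. Per kilobase of exon the 3 most abundant members were GTPases, with DMSO levels of 484 CPM for Gbp2, 374 for Igtp and 160.4 for Iigp1, and Irgm1 stood at 81.0 CPM. On that scale Ifng stood at 81.5 CPM with DMSO and 207 CPM with Yoda1.

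Of the 14 antiviral effectors 4 were lower with Yoda1, none was higher and 11 had log2 fold changes below 0. Of all 12239 tested genes 4.84% were lower, 6.04% were higher and 6314 had log2 fold changes below 0. Oas3, an oligoadenylate synthetase that senses double-stranded RNA and activates RNase L, gave 78.3, 88.5, 82.9 and 86.0 CPM with DMSO and 63.9, 71.5, 64.4 and 68.3 CPM with Yoda1. Mx1, which codes for a dynamin-like antiviral GTPase, gave 22.1, 20.5, 23.9 and 25.0 CPM against 17.8, 18.6, 18.7 and 19.4 CPM. All Yoda1 libraries lay below all DMSO libraries in both genes. The log2 fold changes were -0.32 for Oas3 (SE 0.0475, adjusted p = 1.92e-05, 1.25-fold lower) and -0.29 for Mx1 (SE 0.0728, adjusted p = 0.0094, 1.22-fold lower). Oas3 spans chr5:120753098-120777661 on the minus strand, and Mx1 is known to carry a defective allele in C57BL/6 mice.

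Ifit2 and Cmpk2 were also lower, on fewer counts. Ifit2, of the family of antiviral proteins with tetratricopeptide repeats, gave 15.8, 13.1, 16.4 and 15.96 CPM with DMSO and 11.9, 12.7, 12.8 and 12.04 CPM with Yoda1, from 147 to 256 reads a library. Cmpk2, a mitochondrial nucleotide kinase, gave 28.4, 26.1, 28.9 and 29.3 CPM against 26.8, 24.0, 23.8 and 21.9 CPM. DMSO replicate 2 was the lowest DMSO library for both, close to the Yoda1 libraries for Ifit2 and below Yoda1 replicate 1 for Cmpk2, so the groups overlapped for Cmpk2. The log2 fold changes were -0.30 for Ifit2 (SE 0.0863, adjusted p = 0.0198, 1.23-fold lower) and -0.23 for Cmpk2 (SE 0.0677, adjusted p = 0.0259, 1.17-fold lower). Ifit2 gave an adjusted p of 0.0696 without DMSO replicate 3, 0.0539 without DMSO replicate 4, 0.0561 without Yoda1 replicate 1 and 0.0678 without Yoda1 replicate 4 (range over all alternatives 0.00629 to 0.0696). Cmpk2 gave 0.0684 without DMSO replicate 3, 0.0702 without DMSO replicate 4 and 0.136 without Yoda1 replicate 4 (range 0.0111 to 0.136).

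**Figure D2:**
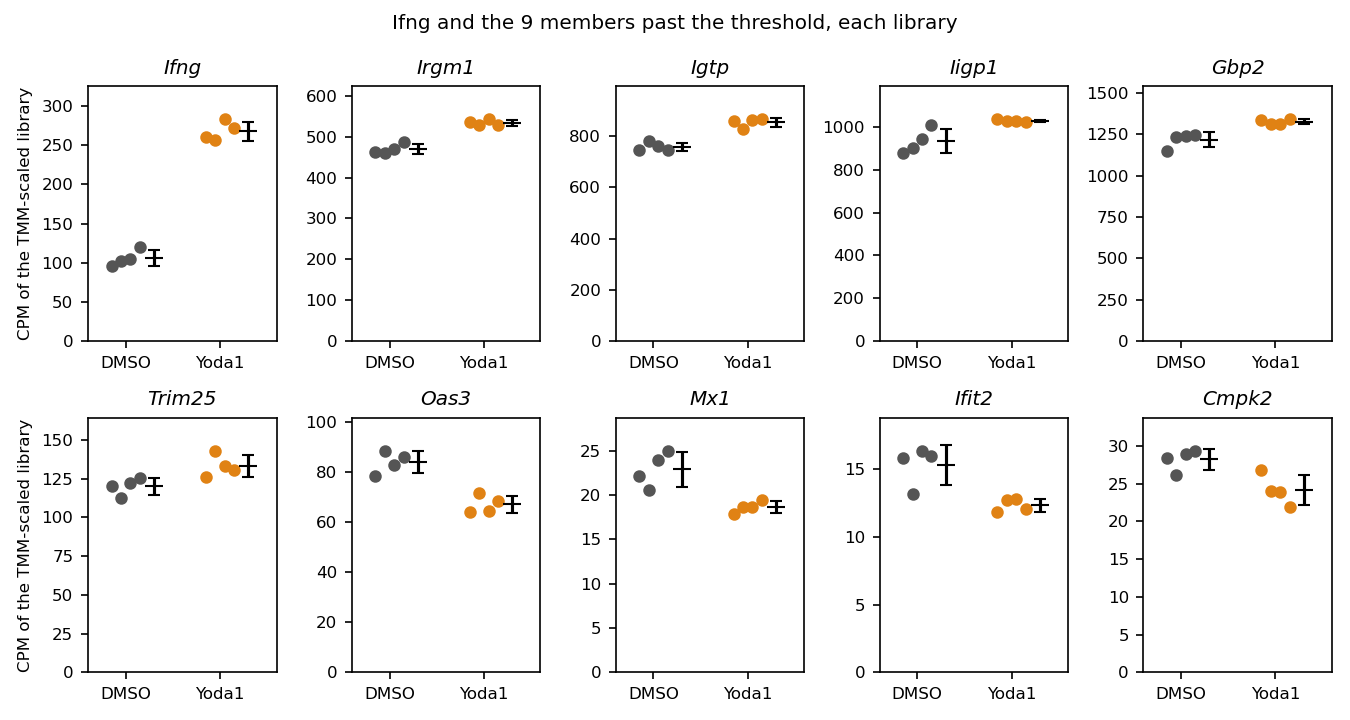
CPM of the TMM-scaled library (vertical axis, from 0) for Ifng and the 9 members that passed the test; each point is 1 library, and the bar beside each group is the mean with its SD (n = 4). The groups lie far apart for Ifng and close together for the members, and the Yoda1 point of replicate 1 for Cmpk2 (26.8) stands above the lowest DMSO point (26.1).

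The members with the largest fold changes among those that did not pass were Oasl1, Oas2, Ifi44 and Ifit3, all below 0 and all with 90 or fewer reads in any library. Oasl1, a relative of the oligoadenylate synthetases that represses Irf7 translation, gave 3.88, 2.79, 4.09 and 3.25 CPM with DMSO and 3.63, 3.47, 2.32 and 2.47 CPM with Yoda1 (log2 fold change -0.24, 95% interval -0.61 to 0.12). Oas2, the neighbour of Oas3 and also an oligoadenylate synthetase, gave 4.19, 3.67, 4.48 and 4.66 CPM against 3.96, 4.02, 3.07 and 3.45 CPM (-0.22, -0.53 to 0.09). The libraries of the groups overlapped in both, and the intervals covered both no change and a decrease larger than that of Oas3.

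Ifi44, a cytoplasmic interferon-induced protein, gave 4.13, 4.93, 4.48 and 5.25 CPM with DMSO and 4.28, 4.63, 2.62 and 4.37 CPM with Yoda1 (log2 fold change -0.22, 95% interval -0.54 to 0.10). Ifit3, a partner of the other Ifit proteins, gave 5.13, 4.49, 5.05 and 5.10 CPM against 3.79, 4.63, 4.87 and 3.96 CPM (-0.19, -0.47 to 0.08). In Ifi44 the low Yoda1 value came from replicate 3 alone, and in Ifit3 the groups overlapped. Ifit3 shares 51.2% of its 50-base words with its near copy Ifit3b, so its counts are uncertain.

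The other 7 antiviral effectors had log2 fold changes from -0.08 to 0.13. Ifit1, which binds viral RNA that lacks the host cap, was the highest at 0.13, with 49.6, 49.1, 57.9 and 51.4 CPM with DMSO and 61.4, 57.9, 59.3 and 50.5 CPM with Yoda1 (adjusted p = 0.165). Its call came only without DMSO replicate 3 or without Yoda1 replicate 4 (adjusted p from 0.0399 to 0.38 over all alternatives). Ifit1, Ifit2 and Ifit3 lie in 1 cluster on chromosome 19 and stood at 0.13, -0.30 and -0.19, and the differences between them were not tested. Rsad2 (viperin), the neighbour of Cmpk2 on chromosome 12, had 24.7 ± 3.11 and 23.8 ± 4.15 CPM, and its interval was wide (-0.34 to 0.25). Samhd1, which removes deoxynucleotides, had 393 ± 14.7 and 403 ± 8.49 CPM (0.04, -0.03 to 0.11). Isg20, an RNA exonuclease, had a log2 fold change of -0.08 and Oasl2, an oligoadenylate synthetase relative, -0.07. Mx2, also defective in this strain, had 1.94 to 3.64 CPM over all libraries.

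Bst2, the tetherin that holds budding viruses at the cell surface, had 122 ± 8.66 CPM with DMSO and 121 ± 6.06 CPM with Yoda1 (log2 fold change -0.02, 95% interval -0.11 to 0.08). Bst2 also marks plasmacytoid dendritic cells. The remaining 6 genes of that list summed to 53.7 to 60.3 CPM with DMSO and 53.1 to 58.9 with Yoda1, and its defining gene Siglech had 1 to 4 counts a library. Of the 3 that were tested, 1 was lower (log2 fold change -0.44) without overlap between the groups. The other 2 were above 0 and did not pass, and 4.84% of all tested genes were lower.

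Of the 4 sensors, Trim25 was higher and the other 3 were below 0. Trim25, a ubiquitin ligase that helps activate the RNA helicase of Ddx58, gave 119.9, 113, 122 and 125 CPM with DMSO and 126, 143, 133 and 130.4 CPM with Yoda1. The groups did not overlap, but Yoda1 replicate 1 was just above the highest DMSO library. The log2 fold change was 0.15 (SE 0.043, adjusted p = 0.0201, 1.11-fold), and the adjusted p was 0.112 without DMSO replicate 2, 0.0965 without Yoda1 replicate 2 and 0.0606 with upper-quartile scaling (range over all alternatives 0.0058 to 0.112). Zbp1, a sensor of Z-form nucleic acid that can trigger cell death, gave 164, 157, 157 and 151 CPM with DMSO and 142, 149.8, 147 and 147 CPM with Yoda1. The groups of Zbp1 did not overlap, yet it did not pass (log2 fold change -0.10, adjusted p = 0.071). It passed when libraries were scaled by library size alone or by upper quartiles (adjusted p from 0.0179 to 0.195 over all alternatives). Ddx58, the RIG-I helicase, had 106 ± 10.5 and 98.7 ± 1.40 CPM (-0.11, adjusted p = 0.224), and Ifih1, the MDA5 helicase, 51.4 ± 4.49 and 48.6 ± 1.92 CPM (-0.07, adjusted p = 0.443). Without DMSO replicate 1, the lowest DMSO library for Ddx58, Ddx58 was lower (adjusted p = 0.00299, range over all alternatives 0.00299 to 0.518).

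None of the 5 members of the ISG15 system and the PARP group passed. Isg15, a ubiquitin-like modifier, gave 31.0, 27.9, 27.6 and 29.8 CPM with DMSO and 23.9, 25.4, 25.7 and 27.7 CPM with Yoda1 (log2 fold change -0.17, adjusted p = 0.0889). The overlap was slight, since only Yoda1 replicate 4 exceeded a DMSO library. Isg15 passed with upper-quartile scaling (adjusted p = 0.0397, range over all alternatives 0.0397 to 0.23). Usp18, which removes Isg15 and restrains the type I receptor, had 24.6 ± 4.25 and 21.8 ± 2.51 CPM (-0.16, adjusted p = 0.431). Parp14, a mono-ADP-ribosyltransferase, had 333 ± 19.4 and 357 ± 16.7 CPM (0.10, adjusted p = 0.109) and passed without Yoda1 replicate 3 (0.0314, range 0.0314 to 0.268). Dtx3l, a ubiquitin ligase, and Parp9, its partner, had log2 fold changes of -0.09 and -0.02, and Dtx3l was lower without DMSO replicate 1 (adjusted p = 0.0093, range 0.0093 to 0.533). Parp9 and Dtx3l overlap on opposite strands, and the strand setting of the counting is not given, so their reads cannot be told apart with certainty.

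The last 3 members did not pass, and their intervals included 0. Ifi35, an interferon-induced leucine zipper protein, had 116 ± 4.74 and 115 ± 3.04 CPM (log2 fold change -0.01, 95% interval -0.09 to 0.07). Rtp4, a receptor transporter protein, had 23.7 ± 1.51 and 23.0 ± 0.567 CPM (-0.04, -0.17 to 0.10). It shares 13.6% of its 50-base words with the overlapping gene model Gm45338, so its counts are uncertain to that degree. Xaf1, a partner of the apoptosis inhibitor XIAP, had 35.9 ± 0.438 and 34.8 ± 0.878 CPM (-0.04, -0.15 to 0.07).

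The roles were also followed library by library. Each gene was set against its mean over the DMSO libraries on the log2 scale, and the median over the genes of a role was taken in each library. For the 6 GTPases the DMSO libraries lay at -0.05, -0.02, 0.01 and 0.05 and the Yoda1 libraries at 0.14, 0.12, 0.12 and 0.14. For the 14 antiviral effectors the DMSO libraries lay at -0.00, -0.11, 0.05 and 0.05 and the Yoda1 libraries at -0.08, -0.06, -0.12 and -0.26. The groups were apart for the GTPases and overlapped for the effectors, where DMSO replicate 2 was as low as the Yoda1 libraries and Yoda1 replicate 4 was the lowest of all. Over all 40 members the DMSO libraries lay between -0.05 and 0.05 and the Yoda1 libraries between -0.07 and -0.01. DMSO libraries also differed among themselves, with 30 of 40 members above their group mean in replicates 3 and 4 against 12 in replicate 1 and 13 in replicate 2.

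**Figure D3:**
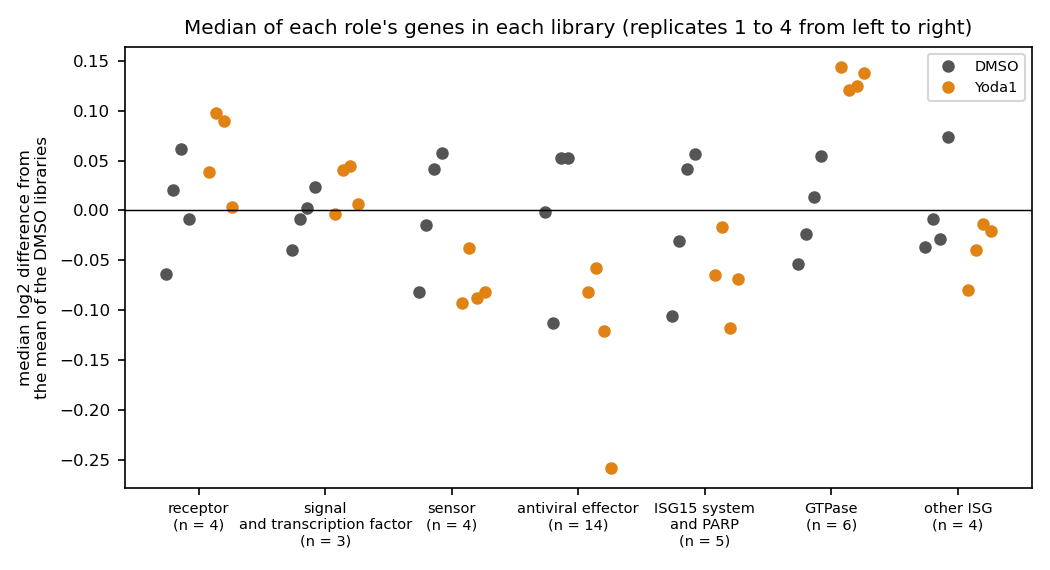
Median over the genes of each role of the log2 difference from the mean of the DMSO libraries (vertical axis), with 1 point per library and replicates 1 to 4 from left to right. The Yoda1 points of the GTPases lie between 0.12 and 0.14, above all DMSO points, while the Yoda1 points of the antiviral effectors lie between -0.26 and -0.06.

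Irf1, an early transcription factor of the interferon-gamma response, rose. It gave 536, 524, 549 and 549 CPM with DMSO and 599, 581, 601 and 605 CPM with Yoda1. The groups of Irf1 did not overlap. The log2 fold change was 0.14 (SE 0.0339, adjusted p = 0.00478). Socs1, the feedback inhibitor of Jak kinases that interferon-gamma induces, gave 519, 451, 507 and 491 CPM with DMSO and 455, 472, 506 and 483 CPM with Yoda1, and it did not pass (log2 fold change -0.04, 95% interval -0.12 to 0.05, adjusted p = 0.631).

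The wider pathway was read from 141 listed genes outside the 40 members, of which 108 were tested, and 13 (Ifng included) were higher and 12 lower, against 6.04% and 4.84% of all tested genes. Without Yoda1 replicate 1, 15 of the 109 genes then tested changed. Among 11 transducers and factors 4 were higher and 1 lower. Irf8, a factor of the interferon-gamma response and of myeloid development, rose from 227 ± 9.30 to 309 ± 16.3 CPM (log2 fold change 0.45, adjusted p = 2.04e-09), and Jak2, the kinase on Ifngr2, rose from 757 ± 15.3 to 879.8 ± 24.1 CPM (0.22, adjusted p = 5.05e-05). Tyk2, the kinase on Ifnar1, fell from 219 ± 5.16 to 203 ± 5.72 CPM (-0.11, adjusted p = 0.037), and with a library left out it kept its call only without DMSO replicate 4 or Yoda1 replicate 3 (adjusted p from 0.00882 to 0.119 over all alternatives, the highest without Yoda1 replicate 2). Among 7 negative regulators only Ptpn6, the phosphatase SHP-1, passed, at 61.7 ± 3.19 and 74.4 ± 2.02 CPM (0.27, adjusted p = 0.000147).

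Among 11 genes of nucleic acid sensing, only Mb21d1, the DNA sensor cGAS, passed, falling from 16.7 ± 0.811 to 14.0 ± 1.22 CPM (log2 fold change -0.25, adjusted p = 0.0455), and with a library left out it kept its call only without DMSO replicate 1 (adjusted p from 0.0231 to 0.157 over all alternatives, the highest without Yoda1 replicate 1). Of 53 further interferon-stimulated genes 1 was higher and 7 were lower (6.04% and 4.84% of all tested genes), with a median of 0.01. The 1 that rose was Cd274, the checkpoint ligand PD-L1, at 278 ± 8.16 and 309 ± 9.12 CPM (0.15, adjusted p = 0.00489). Mov10, an RNA helicase with antiviral action, fell from 89.5 ± 6.35 to 76.1 ± 3.67 CPM (-0.24, adjusted p = 0.00149), and Slfn5, of the Schlafen family, from 37.0 ± 2.21 to 31.1 ± 0.691 CPM (-0.25, adjusted p = 0.00464).

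Of 31 targets that lean to interferon-gamma, 10 were higher and 3 lower, with a median of 0.03, beside 6.04% higher and 4.84% lower among all tested genes. The list was written with earlier results of these data known and is not independent evidence of its direction, and some of its genes, such as Irf8, are also in the list of transducers. Tgtp2, a GTPase of the same family as Igtp, rose from 243 ± 7.24 to 287 ± 7.61 CPM (log2 fold change 0.24, adjusted p = 2.27e-05). Gbp8 fell from 211 ± 4.69 to 179 ± 10.3 CPM (-0.24, adjusted p = 8.81e-05) and Gbp5 from 272 ± 9.02 to 251 ± 4.86 CPM (-0.11, adjusted p = 0.0371). With a library left out, Gbp5 kept its call only without DMSO replicate 1 (adjusted p from 0.00742 to 0.112 over all alternatives, the highest without Yoda1 replicate 3). Guanylate-binding genes lay on both sides of 0, with Gbp2 and Gbp6 higher and Gbp4, Gbp5 and Gbp8 lower. Gbp6 (0.14, adjusted p = 0.00777) passed in 14 of 15 alternatives and Gbp4 (-0.11, adjusted p = 0.0389) in 9 of 15. The chemokine Cxcl9, named after its values were seen as the gene with the largest rise in the list that did not pass, had 29 to 52 counts and a log2 fold change of 0.47 (95% interval 0.10 to 0.83, adjusted p = 0.093).

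**Figure D4:**
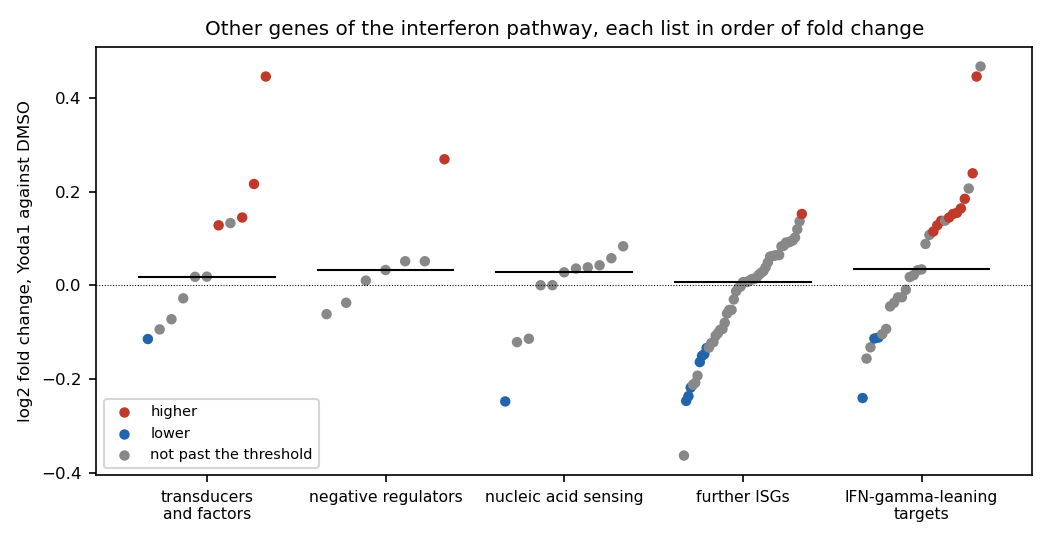
Log2 fold change of Yoda1 against DMSO (vertical axis) for the tested genes of 5 lists of the interferon pathway outside the 40 members; each point is 1 gene in order within its list, the black line is the median, and colours show the edgeR call. Medians lie between 0.01 and 0.03, and the points run from -0.36 to 0.47, all below the 1.35 of Ifng, which is not drawn.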

How the data were processed

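The authors deposited 1 table of raw counts per library, whole-number reads for 23183 gene symbols with no normalization. The study's methods describe poly(A) selection, a NEBNext Ultra II directional kit, NovaSeq sequencing, FastQC, FASTX Trimmer, BBMap and Cufflinks. The submitters' processing notes name TopHat and mm10. Tool versions, annotation, counter and strandedness are not given in the sources used here. Groups followed the treatment labels, with 4 libraries each.

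Counts were filtered with filterByExpr (minimum count 10, minimum total 15), scaled by TMM and tested with the robust quasi-likelihood fit of edgeR 4.0.16 (R 4.3.3), and p-values were adjusted over 12239 genes by Benjamini-Hochberg, with a threshold of 0.05. The standard error is the absolute log2 fold change divided by the root of F, and intervals are 95% t intervals. The test was first tried on simulated data with the same setting of spread for all genes. The changed genes there moved more than the members did, so the trial does not cover changes as small as theirs. Positions and exon lengths came from GENCODE M21 (GRCm38), promoters from RefSeq.

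Every member is given by role. Values per library are given for members past the threshold, the receptors, the 4 largest changes that missed it, Ifng, Irf1 and Socs1, and for each wider list the 2 smallest p-values in each direction are named. The result of 1 further gene is not reported here. The members and lists were chosen with earlier results of these data known. As alternatives, scaling used library sizes alone or upper quartiles, and the others were DESeq2 1.42.0, no filter, at least 10 counts in every library, limma-voom (limma 3.58.1), a replicate block, and each library left out.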

Additional observations from a re-analysis of the deposited data

Results flagged for a closer look

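In each group of 4 libraries, the highest and the lowest value were compared with the nearest of the others, and a gap above Dixon's 95% critical share of the group's range was marked. Over 132 groups (a gene in DMSO or Yoda1 libraries), 10 were marked, while chance marks about 1 in 20, or 6.6. Among members, DMSO replicate 2 was low for Ifit2 (13.1 CPM, next 15.8) and for Ifit3 (4.49 CPM, next 5.05), and DMSO replicate 1 was low for Gbp2 (1151 CPM, next 1235). Yoda1 replicate 4 was low for Gbp3 (131 CPM, next 136) and Yoda1 replicate 2 was low for Igtp (828 CPM, next 860.2). Yoda1 replicate 1 was high for Iigp1 (1037 CPM, next 1027) and Yoda1 replicate 3 was high for Ifi35 (119.5 CPM, next 114). Outside the members, DMSO replicate 1 was low for Jak2 (734 CPM, next 763), Yoda1 replicate 4 was high for Uba7 (110.5 CPM, next 108.0) and Yoda1 replicate 3 was low for Gbp5 (244 CPM, next 253).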

How the results depend on the processing

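The 2.54-fold rise of Ifng passed under every alternative run, with a log2 fold change of 1.30 to 1.41 when a library was left out. Oas3, Mx1, Igtp and Irgm1 passed in 15 of 15 alternatives. The count of 5 higher members became 2 with upper-quartile factors and 2 with the replicate block, and 3 to 6 with a library left out. The count of 4 lower members became 2 to 7 with a library left out, 7 without DMSO replicate 1 and 2 without DMSO replicate 3, DMSO replicate 4 or Yoda1 replicate 4. The 25 changed genes of the wider pathway became 15 with the replicate block and 15 to 27 with a library left out. The cause was not tested. The members' median log2 fold change stayed below 0, from -0.05 to -0.02 with a library left out and at -0.07 with upper-quartile factors. Over all genes the split of 739 higher and 592 lower became 505 and 958 with upper-quartile factors and 553 and 809 with library size alone. After each gene was set against its group mean, same-numbered samples correlated at -0.03 to 0.07 over genes, with 0 of 4 pairs over 0.1. Of the 8 samples, 3 correlated best with their own number. With 4 samples per group, these values cannot decide if replicate numbers mark shared material. The block lowered the changed genes from 1331 to 966. With the block Gbp2 (adjusted p = 0.0682), Iigp1 (0.0506), Trim25 (0.0657) and Cmpk2 (0.0529) no longer passed, with log2 fold changes of 0.12, 0.14, 0.15 and -0.23, and no other member changed its call. Members with 90 or fewer reads in any library had intervals too wide to show changes of the size seen in the GTPases.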
